A study of Mus musculus with 16 samples.

Results

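The Gadd45 family, the cyclin-dependent kinase inhibitors and p53 with its regulators and targets were followed in myofibers, which are the contractile cells of skeletal muscle and hold many nuclei each. The genes were chosen by symbol, with earlier results of these data known. They comprised Gadd45a, Gadd45b and Gadd45g, the inhibitors Cdkn1a (p21), Cdkn1b (p27) and Cdkn2a, p53 itself (Trp53), its regulators Mdm2 and Hipk2, and its target Ccng1. Of the 10 named genes, 9 had values among the 23221 gene symbols listed in the series, and Cdkn2a was not analysed here. The fibres came from the extensor digitorum longus, a fast hindlimb muscle, of male C57BL/6 mice, and mononucleated cells had been stripped from them before bulk RNA-seq. Old runners were 22 months old and had run voluntarily on wheels for 5 weeks, and old controls were 22 months old without wheel running. Young runners were 4 months old with the same 5 weeks of running, and young controls were 4 months old without it. Each of these 4 groups held 4 libraries, and the labels do not state whether these came from separate animals, so any p-value refers to spread among libraries only. They held 30.7 to 67.4 M assigned reads (median 46.9 M). Libraries of runners are called O1ex to O4ex and Y1ex to Y4ex, and those of controls Oc1 to Oc4 and Yc4, Yc5, Yc7 and Yc8, after the columns of the tables.

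Gadd45 proteins are small, acidic stress proteins that are induced by growth arrest, DNA damage and other stresses, bind the kinase MAP3K4 upstream of p38 and JNK, and take part in DNA demethylation. The transcription factor p53 is held low by the ubiquitin ligase MDM2 and, once stabilised, switches on genes such as Cdkn1a, Mdm2, Ccng1 and Gadd45a, while the kinase HIPK2 phosphorylates p53 and favours its activation. In skeletal muscle, Gadd45a and Cdkn1a are best known for their induction in denervated and unloaded fibres, and Gadd45 genes also respond to single bouts of contraction.

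The sequence just before the transcription start is shown for the 3 Gadd45 genes, of which Gadd45b and Gadd45g were lower in runners of both ages, and for Cdkn1a, the best-known p53 target, so that the promoters can be read beside the values. The windows are upstream sequence of RefSeq on GRCm38.p6, on the strand of the gene. Each ends before the more upstream of the gene's starts in RefSeq and GENCODE M21. Transcripts of other genes over these bases were not looked for. Capitals mark CCAAT boxes, the TATA box core TATAAA and the E-box CACGTG in the Gadd45 genes, and matches to the p53 half-site in Cdkn1a. They cover chr6:67037458-67037657 (minus strand) for Gadd45a, chr10:80929841-80930072 (plus strand) for Gadd45b, chr13:51846425-51846674 (plus strand) for Gadd45g and chr17:29090729-29090975 (plus strand) for Cdkn1a.
Gadd45a: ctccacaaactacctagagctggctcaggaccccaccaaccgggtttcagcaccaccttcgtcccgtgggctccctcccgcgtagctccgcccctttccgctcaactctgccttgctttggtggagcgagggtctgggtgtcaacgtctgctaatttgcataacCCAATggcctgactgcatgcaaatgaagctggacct
Gadd45b: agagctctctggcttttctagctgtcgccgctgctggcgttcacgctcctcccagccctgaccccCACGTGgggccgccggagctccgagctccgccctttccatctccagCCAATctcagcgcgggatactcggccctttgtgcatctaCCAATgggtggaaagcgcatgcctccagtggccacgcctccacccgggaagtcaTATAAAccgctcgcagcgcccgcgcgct
Gadd45g: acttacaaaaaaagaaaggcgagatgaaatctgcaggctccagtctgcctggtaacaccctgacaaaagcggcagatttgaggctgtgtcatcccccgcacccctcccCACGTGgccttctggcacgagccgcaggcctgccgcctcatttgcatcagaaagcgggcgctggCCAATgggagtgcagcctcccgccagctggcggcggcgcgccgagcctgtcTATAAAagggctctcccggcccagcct
Cdkn1a: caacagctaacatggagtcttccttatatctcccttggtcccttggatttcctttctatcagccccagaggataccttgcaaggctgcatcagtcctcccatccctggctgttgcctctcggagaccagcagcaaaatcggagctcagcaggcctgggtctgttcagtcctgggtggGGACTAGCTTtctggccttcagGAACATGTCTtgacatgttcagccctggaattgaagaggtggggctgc

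Motifs were searched on both strands of these windows and of 32851 RefSeq windows of 250 bases. TATAAA, the core of the TATA box, ended 23 bases before the end of the Gadd45b window and 22 before that of Gadd45g, counting the last base as 1, and no match lay in the Gadd45a window. It was present in 12.4% of all windows. CCAAT, a core promoter motif bound by NF-Y, occurred 2 times in the Gadd45b window and 1 time each in those of Gadd45g and Gadd45a (33.8% of all windows), and CACGTG, an E-box, 1 time each in those of Gadd45b and Gadd45g (6.02%). The Cdkn1a window shown had 2 matches to the p53 half-site, and the windows of Mdm2, Ccng1 and Trp53 had 1 each, against 7.13% of all windows. None of the 3 Gadd45 windows held a p53 half-site, the cyclic AMP response motif TGACGTCA (1.55%), the AP-1 motif TGANTCA (6.75%) or a CArG box of serum response factor (1.47%), which says only that these letters are not in these bases. The motifs did not overlap each other, and a match is a description of the letters and not a bound site. In mm10 (GENCODE M21) the genes behind them span 67035096 to 67037457 on chromosome 6 for Gadd45a, 80930073 to 80932204 on chromosome 10 for Gadd45b, 51846678 to 51848468 on chromosome 13 for Gadd45g and 29090976 to 29100727 on chromosome 17 for Cdkn1a.

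Gadd45b, which encodes the family member induced by NF-kB and TGF-beta signals, was lower in runners than in controls at both ages. Normalised reads (reads divided by the library's size factor, 1 scale for all 16 libraries) were 4464, 7377, 9338 and 7220 in old runners O1ex to O4ex, against 16926, 20583, 18345 and 15166 in old controls Oc1 to Oc4. In young mice they were 11016, 7608, 9503 and 8373 in runners Y1ex to Y4ex, against 18502, 12699, 20525 and 19217 in controls Yc4, Yc5, Yc7 and Yc8. At neither age did a runner reach the lowest control of its age. Means were 7099.9 ± 2004 in old runners and 17755 ± 2290 in old controls, and 9125.2 ± 1482 in young runners and 17736 ± 3461 in young controls (SD, n = 4 each). On the deposited log2 scale Gadd45b fell by 1.30 (SE 0.20) in old runners, with an adjusted p of 0.0458 by limma over 9379 genes. In young runners the difference was -0.94 (SE 0.19), with an adjusted p of 0.0560 over 10624 genes, and did not pass. RNA per fibre and the number of fibres or other cells behind a library cannot be told apart in such bulk samples.

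Gadd45g, whose protein binds the same kinase and inhibits cyclin B1 with CDK1, was the most abundant of the family per length. Its normalised reads were 5354, 20671, 27179 and 12100 in old runners (O1ex to O4ex), against 46842, 62975, 51746 and 47682 in old controls (Oc1 to Oc4). In young runners (Y1ex to Y4ex) they were 27725, 9566, 10648 and 23962, against 58483, 36839, 53489 and 49024 in young controls (Yc4, Yc5, Yc7, Yc8). The highest runner lay below the lowest control at each age, while runners spread widely among themselves (coefficient of variation 58.6% in old runners and 51.3% in young runners, against 14.2% in old controls and 18.7% in young controls). The log2 difference was -1.86 (SE 0.39) in old mice and -1.59 (SE 0.33) in young mice. Neither passed, with adjusted p of 0.0888 and 0.0611 by limma. O1ex, the library with the fewest reads (30.7 M), had the lowest value of both genes, and without it the old differences were -1.43 for Gadd45g and -1.11 for Gadd45b.

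Gadd45a, the p53-inducible member and the one most studied in muscle wasting, differed less and overlapped between groups. It had 7225, 16925, 13206 and 7552 normalised reads in old runners, against 15333, 9212, 14809 and 15562 in old controls. In young mice runners had 14498, 9828, 8146 and 14840, against 16699, 14605, 13964 and 10670 in controls. The log2 differences of -0.33 (95% interval -0.93 to 0.27) in old mice and -0.27 (-0.75 to 0.21) in young mice did not pass (adjusted p = 0.560 and 0.549 by limma). An antisense gene, E230016M11Rik, shares 337 of the 1764 exon bases of Gadd45a. The libraries keep no strand, so reads over the shared bases cannot be told apart by strand.

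Per kilobase of exon, the family as a whole was lower in runners, with a smaller share of Gadd45g and a larger one of Gadd45a. Summed over the 3 genes it reached 24751 ± 11507 normalised reads per kilobase in old runners and 63553 ± 6005 in old controls, and 27772 ± 10210 in young runners and 61253 ± 10120 in young controls (SD, n = 4 each). The runners' ranges, 11470 to 36534 at 22 months and 18515 to 38787 at 4 months, stayed below those of the controls, 59016 to 71863 and 47677 to 70968. Gadd45g supplied 39.8% to 63.4% of the sum in old runners and 67.4% to 74.7% in old controls, and 44.0% to 60.9% in young runners and 65.9% to 70.3% in young controls, ranges that do not overlap at either age. Gadd45a supplied 20.5% to 35.7% in old runners and 7.27% to 14.9% in old controls, and 21.2% to 30.1% in young runners and 10.1% to 17.4% in young controls. These shares were not tested. The mean share of Gadd45b was between 17.6% and 22.4% in the 4 groups.

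**Figure D1:**
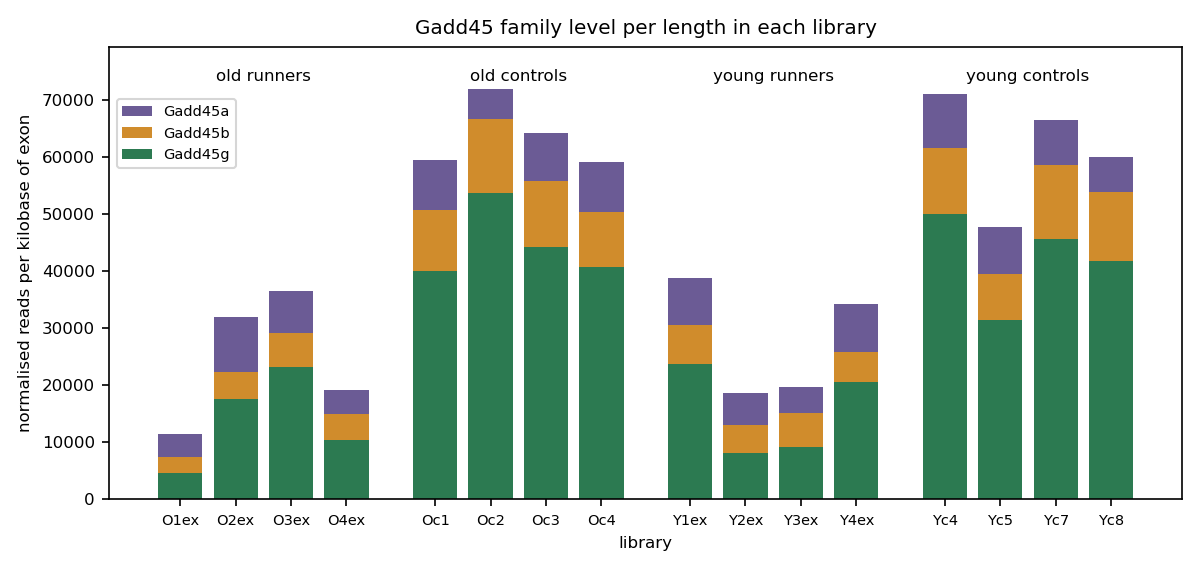
Normalised reads per kilobase of exon (y axis) in each of the 16 libraries (x axis), stacked by family member. Runners reached at most 38787 for the sum and controls at least 47677, and the Gadd45g part made up 39.8% to 63.4% of the sum in old runners, against 67.4% to 74.7% in old controls.

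Cdkn1a encodes p21, which stops the cell cycle by inhibiting cyclin-dependent kinases and is the textbook p53 target. Its normalised reads were 4712, 8828, 7790 and 6442 in old runners, against 4877, 3600, 7536 and 7493 in old controls. In young mice they were 11452, 8050, 5110 and 9260 in runners, against 6665, 6844, 4413 and 3186 in controls. The groups overlapped at both ages, with 3 of the 4 young runners above every young control. The log2 difference was 0.26 (95% interval -0.29 to 0.80, adjusted p = 0.625 by limma) in old mice and 0.67 (0.04 to 1.29, adjusted p = 0.261) in young mice, and neither passed. With library weights the young difference was 0.93 (adjusted p = 0.0120), the only alternative that called it. A predicted antisense gene, AC167363.2, shares 273 exon bases with Cdkn1a.

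Cdkn1b, the gene of the related inhibitor p27, was close to the detection floor. It had 72.4 ± 33.2 normalised reads in old runners and 89.8 ± 39.2 in old controls, and 148 ± 45.8 in young runners and 122 ± 47.5 in young controls (SD, n = 4 each). The filter on low values removed it from both comparisons that include old runners. In young mice the difference was 0.14 (adjusted p = 0.781 by limma).

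Hipk2 was the other member that passed in old mice, and it rose. Its normalised reads were 2370, 2406, 2268 and 2572 in old runners O1ex to O4ex, against 1192, 1081, 1093 and 1431 in old controls Oc1 to Oc4. All old runners lay above all old controls, with means of 2404.0 ± 126.6 in old runners and 1199.3 ± 162.2 in old controls. The log2 difference was 0.83 (SE 0.12), with an adjusted p of 0.0458 by limma. In young mice runners had 1048, 2812, 2056 and 1707 reads, against 440, 2722, 2074 and 1602 in controls. There the groups overlapped throughout, the difference was 0.27 (95% interval -0.70 to 1.24, adjusted p = 0.785), and without the control Yc4, which had 440 reads, it was -0.20 (adjusted p = 0.767). The gene spans 38694390 to 38876165 on the minus strand of chromosome 6 in mm10, and overlaps Tbxas1 on the other strand with no exon base in common.

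Ccng1, the p53 target gene of cyclin G1, was the most abundant of the p53-linked members. Old runners had 110002, 99594, 77159 and 102318 normalised reads, against 72268, 82866, 73751 and 66054 in old controls. Of the 4 old runners 3 lay above every old control, and the remaining one, O3ex, lay among the controls. The log2 difference of 0.40 (95% interval 0.06 to 0.73) did not pass (adjusted p = 0.214 by limma). In young mice runners averaged 82582 ± 11405 and controls 78107 ± 7774, a difference of 0.07 (adjusted p = 0.848).

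Trp53, the gene of p53, was measured at a low level in every library, with 422 ± 103 normalised reads in old runners and 368 ± 82.6 in old controls, and 474 ± 93.4 in young runners and 393 ± 92.5 in young controls. Its difference was 0.11 in old mice (adjusted p = 0.773 by limma) and 0.20 in young mice (adjusted p = 0.649). Mdm2, whose protein marks p53 for degradation and which is itself a p53 target, had 7362.1 ± 828.6 reads in old runners and 7574.3 ± 2020 in old controls, and 7223.9 ± 1254 in young runners and 6522.8 ± 1618 in young controls. Its differences had 95% intervals of -0.40 to 0.39 in old mice and -0.27 to 0.58 in young mice. Both genes overlapped between runners and controls at each age.

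**Figure D2:**
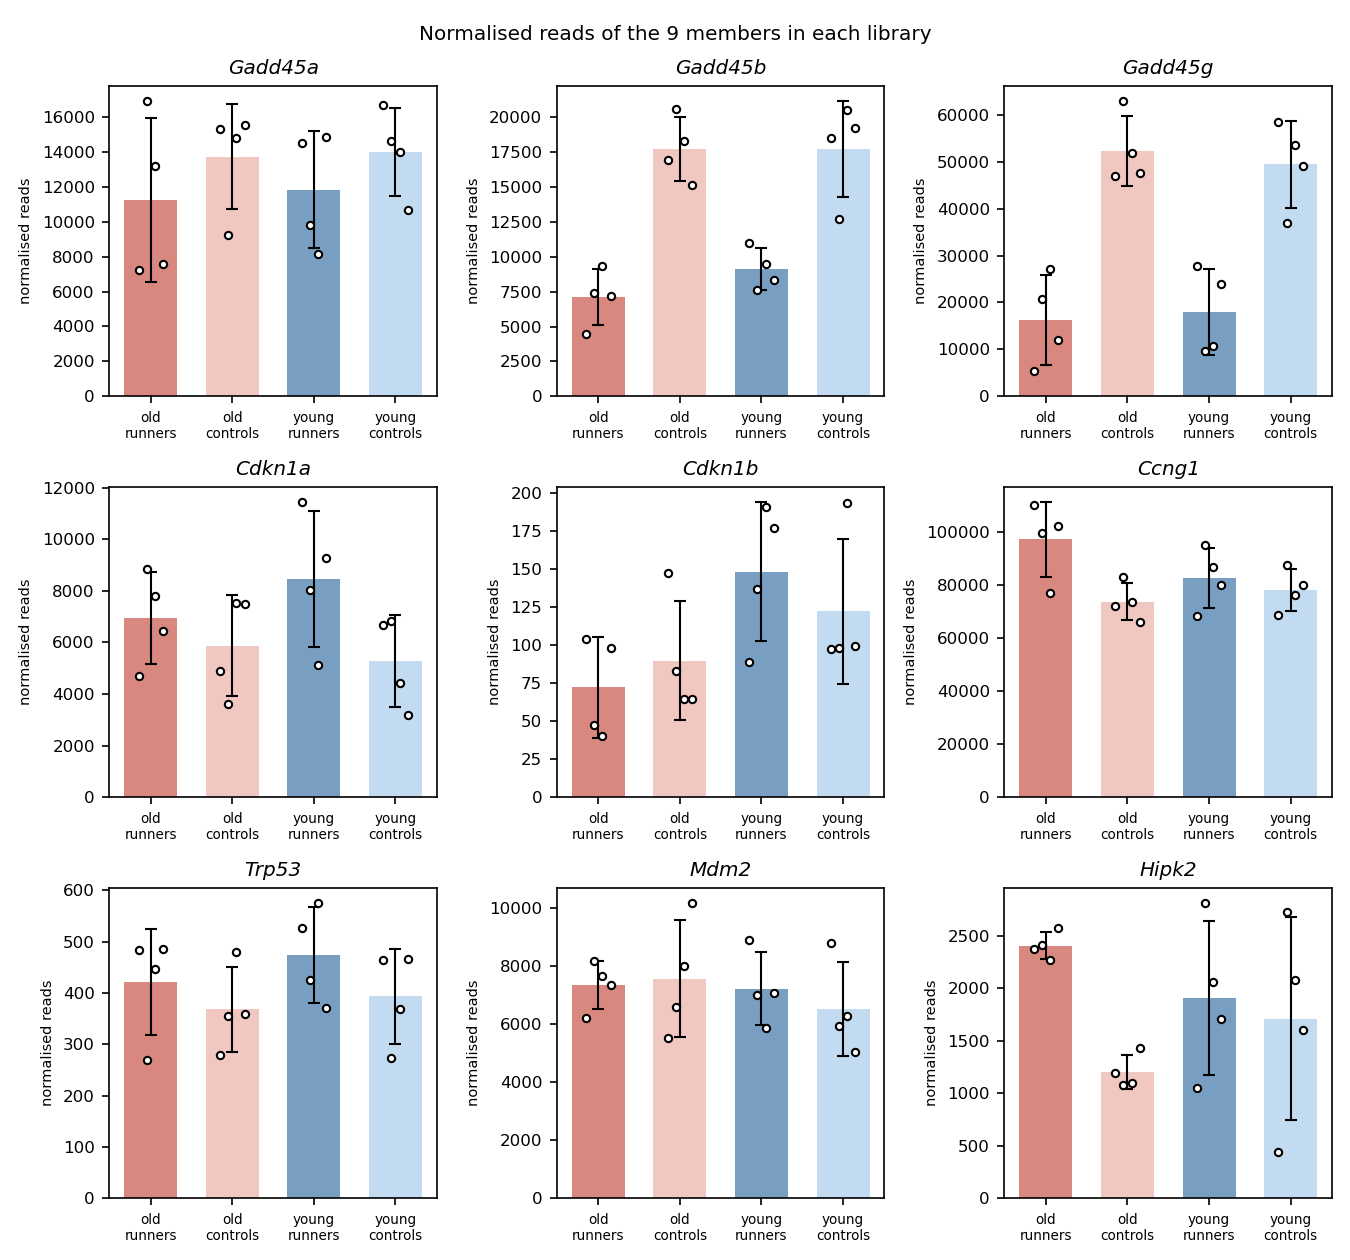
Normalised reads (y axis, from 0) of the 9 members in the 4 groups. Bars are means, error bars the SD of 4 libraries and points the libraries. Gadd45b and Gadd45g separated runners from controls at both ages, Hipk2 in old mice, and the rest overlapped.

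Levels of different genes were set in order per kilobase of exon. In old runners the order was Ccng1 (27696 ± 4018 normalised reads per kilobase), Gadd45g (13918 ± 8161), Gadd45a (6364 ± 2657), Gadd45b (4468 ± 1261), Cdkn1a (1954 ± 501), Mdm2 (1448 ± 163), Hipk2 (272.1 ± 14.3), Trp53 (104.2 ± 25.4) and Cdkn1b (15.90 ± 7.30). In old controls Gadd45g came first (44596 ± 6330), before Ccng1 (20995 ± 1976) and Gadd45b (11174 ± 1441), which stood above Gadd45a (7783 ± 1716). Cdkn1a (1654 ± 552) and Mdm2 (1490 ± 397) lay within 1 SD of each other in old controls. In old runners the gaps between Gadd45g and Gadd45a and between Gadd45a and Gadd45b were smaller than the SD of the higher gene and larger than that of the lower. Young runners and young controls had the same first gene as their old counterparts, Ccng1 with 23514 ± 3247 in young runners and Gadd45g with 42164 ± 7892 in young controls.

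Counted together, 2 of the 8 members tested passed in old runners against old controls (Gadd45b lower, Hipk2 higher), where 0.128% of the 9379 genes tested passed, 0.0746% higher and 0.0533% lower. The groups did not overlap for 3 of the 8 (Gadd45b, Gadd45g and Hipk2), against 10.2% of all genes tested, and 4 of the 8 had an unadjusted p under 0.05, against 17.4% of genes. In young runners against young controls 0 of 9 members passed limma's adjusted threshold, against 0.762% of 10624 genes, while 3 of the 9 had an unadjusted p under 0.05 (Gadd45b, Gadd45g and Cdkn1a; 17.4% of all genes) and voom on recovered reads also called 0. There 2 of 9 did not overlap between groups, against 11.5% of all genes tested. As the members were chosen with earlier results of these data known, these shares describe the members and are not a test. The calls of Gadd45b and Hipk2 lay close to the threshold. In old mice Gadd45b kept its call without Oc1, O1ex or O3ex (adjusted p 0.0218 to 0.0480) and lost it without any other library (0.0847 to 0.219), and Hipk2 kept it only without Oc1 (0.0210, otherwise 0.0560 to 0.219). Both were lost with voom on recovered reads (adjusted p = 0.0583 for each), with no filter (0.0640 for each) and without a variance trend (0.0596 for each).

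**Figure D3:**
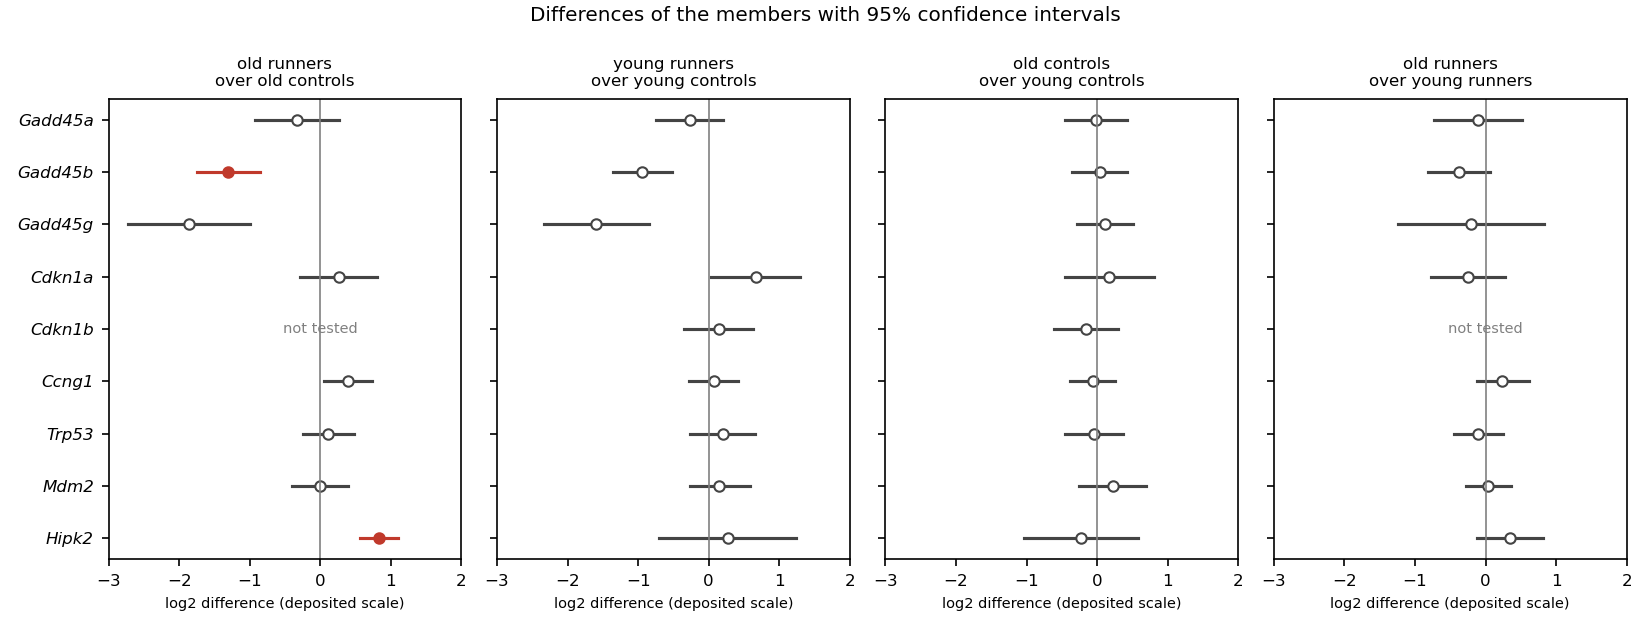
Log2 differences on the deposited scale (x axis) with 95% confidence intervals for the 9 members (y axis) in the 4 comparisons, filled red where the adjusted p was under 0.05. Gadd45b and Hipk2 are filled in old runners over old controls, and every interval includes 0 in both comparisons of ages.

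Both running comparisons were then joined into 1 running effect averaged over the ages, an analysis added after the data were seen and built on the same 16 libraries. In it 2 of the 8 members tested fell, where 9.52% of 9356 genes passed and 4.66% passed and were lower. Gadd45b fell by 1.12 (SE 0.14, adjusted p = 0.000856 by limma) and was lower in each of the 8 runners than in each control of the same age. Gadd45g fell by 1.72 (SE 0.28, adjusted p = 0.00196), likewise in all 8 runners. Without any 1 library their adjusted p stayed at or under 0.00366 for Gadd45b and 0.00689 for Gadd45g. The exon length trend described below was not removed in this averaged effect. Cdkn1a (0.46, adjusted p = 0.145), Hipk2 (0.55, adjusted p = 0.155), Ccng1 (0.23, adjusted p = 0.166), Gadd45a (-0.30, adjusted p = 0.287), Trp53 (0.15, adjusted p = 0.440) and Mdm2 (0.07, adjusted p = 0.745) did not pass.

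Whether the running effect differed with age was tested by the interaction of running and age. Of the 8 members tested, 0 passed (0 unadjusted, and 0 with voom), against 0% of 9356 genes. The difference of the effects, old minus young, was -0.36 for Gadd45b (95% interval -0.96 to 0.23), -0.28 for Gadd45g (-1.47 to 0.91), 0.56 for Hipk2 (-0.48 to 1.60), -0.41 for Cdkn1a (-1.26 to 0.45) and 0.33 for Ccng1 (-0.11 to 0.77), with adjusted p of 0.854 or more by limma. The pass of Hipk2 in old mice and not in young mice is therefore not shown to be a difference between ages. Over all genes, 585 (6.25%) had an unadjusted p under 0.05, and voom called 0 with 590 unadjusted. The deposited scale was made separately for each age, with a floor of 7.6867 in old mice and 6.7301 in young mice. It thus compresses low values more in old mice, which the limma fit does not take up, while voom works on reads.

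Age itself was compared in controls and in runners, 2 comparisons that use the same libraries as those of running. Old controls over young controls gave differences between -0.23 (Hipk2) and 0.22 (Mdm2) for the 9 members tested, and 0 of them passed (limma, 0 with voom), against 0.112% of 9831 genes. Without adjustment 0 of the 9 passed as well, against 11.2% of genes. Gadd45b averaged 17755 ± 2290 normalised reads in old controls and 17736 ± 3461 in young controls (0.04, 95% interval -0.36 to 0.43). Gadd45g averaged 52311 ± 7425 in old controls and 49459 ± 9258 in young controls (0.11, -0.28 to 0.51). Cdkn1a averaged 5876.4 ± 1962 in old controls and 5276.8 ± 1779 in young controls (0.17, -0.46 to 0.80). Old runners over young runners gave 0 of 8 members past the threshold (limma, 0 with voom), against 0.0213% of 9387 genes, and 0 without adjustment, against 4.91%. There Gadd45b differed by -0.37 (-0.81 to 0.07, adjusted p = 0.988), Hipk2 by 0.35 (-0.12 to 0.81, adjusted p = 0.988) and Ccng1 by 0.24 (-0.12 to 0.61, adjusted p = 0.996).

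Differences in running moved with transcript length, and the members sit at different lengths. Across 9199 genes in old mice the log2 difference rose with exon length (Spearman rho 0.339, genes not being independent replicates), and across 10403 genes in young mice the rho was 0.122. Genes were divided by exon length into 10 bins of equal size. Gadd45g (1173 bases) and Gadd45b (1589 bases) lie in the bin of the shortest genes, whose median difference was -0.13 in old mice and -0.12 in young mice. Hipk2 (8836 bases) lies in bin 9, with a median of 0.18 in old mice and 0.08 in young mice. With a smooth trend on exon length removed, the old differences were -1.19 for Gadd45b (adjusted p = 0.0927), -1.73 for Gadd45g (adjusted p = 0.138) and 0.66 for Hipk2 (adjusted p = 0.111), and 1 gene in all was called. In young mice they were -0.85 for Gadd45b (adjusted p = 0.0703) and -1.45 for Gadd45g (adjusted p = 0.0768).

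**Figure D4:**
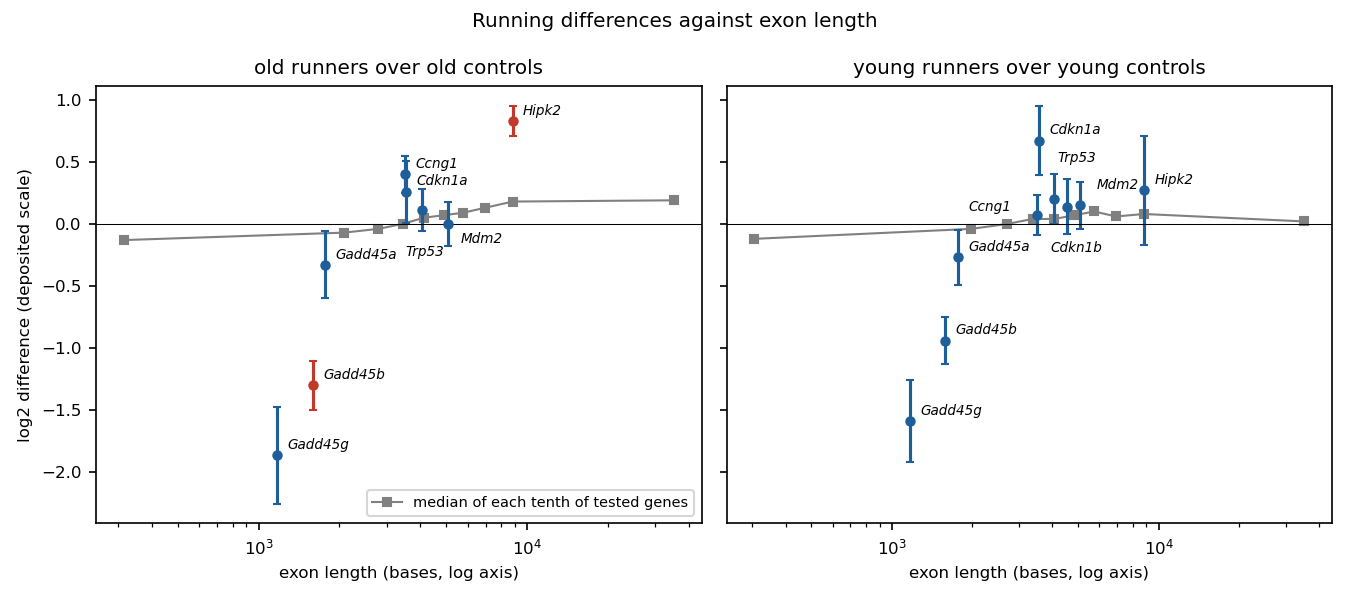
Log2 difference with running (y axis) against exon length (x axis, log) in old mice (left) and young mice (right). Points are members with their SE, red where called, and grey squares the median of each of 10 bins of genes, which runs from -0.13 to 0.19 in old mice. In old mice Gadd45b (-1.30) and Gadd45g (-1.86) lie below the median of their bin (-0.13) and Hipk2 (0.83) above that of its bin (0.18).

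Further targets of p53 lay on both sides of 0 (10 above and 11 below in old mice, 13 above and 12 below in young mice). Of 34 listed genes that p53 can induce, 21 were tested in old mice and 25 in young mice. By adjusted p 0 passed in either, with limma or with voom. Without adjustment 2 of 21 and 7 of 25 passed with limma, against 17.4% of all genes at each age. Medians were -0.04 in old mice and 0.01 in young mice, against 0.03 and 0.01 over all genes. The smallest p belonged to Fas, a death receptor gene, in old mice (461 ± 197 normalised reads in old runners and 851 ± 140 in old controls, -0.61, adjusted p = 0.180 by limma) and to Eda2r, a receptor gene of the tumour necrosis factor family, in young mice (1799 ± 169 in young runners and 1202 ± 119 in young controls, 0.51, adjusted p = 0.130). In the averaged effect 1 of 21 passed, Fas, which fell by 0.50 (adjusted p = 0.0485) but lost the call under 15 of 20 alternatives (adjusted p up to 0.107). Over all genes 9.52% passed there, and 4.66% passed and were lower. Between controls of the 2 ages the smallest p was that of Bbc3, which encodes the death-promoting protein PUMA (412.9 ± 102 in old controls and 195.0 ± 79.3 in young controls, 0.62, adjusted p = 0.292). Between runners it was that of the stress-response gene Sesn1 (0.55, adjusted p = 0.806).

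Of 20 other regulators of p53, 15 were tested in old mice and 18 in young mice. By adjusted p 0 passed at either age, with limma or with voom. Without adjustment 8 of 15 in old mice and 2 of 18 in young mice passed with limma, against 17.4% of all genes at each age. Trp53bp1, whose protein 53BP1 binds p53 and DNA breaks, had 440.8 ± 77.0 normalised reads in old runners and 126.3 ± 123 in old controls (0.99, adjusted p = 0.131 by limma), and 807 ± 168 in young runners and 347 ± 178 in young controls. It rose in the averaged effect (0.97, adjusted p = 0.00552) and kept that call under all 20 alternatives, of which the exon length trend was not one. Of the 15 regulators tested there it alone passed, where 9.52% of all genes did. Mdm4, a partner of MDM2 in restraining p53, had the smallest p in young mice (631 ± 190 in young runners and 1505 ± 498 in young controls, -1.03, adjusted p = 0.0910). Between controls it was the acetyltransferase gene Ep300 (144 ± 103 in old controls and 564 ± 241 in young controls, -1.18, adjusted p = 0.241), and between runners Trp53bp1 (-0.55, adjusted p = 0.552).

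Among 10 kinases of the p38 and JNK pathways that lie downstream of Gadd45 proteins, 9 were tested at each age. By adjusted p 0 passed at either, with limma or with voom. Without adjustment 3 of 9 in old mice and 2 of 9 in young mice passed with limma, against 17.4% of all genes at each age. Map3k4, the kinase that Gadd45 proteins bind, had 2578 ± 558 normalised reads in old runners and 1270 ± 476 in old controls, and 2472 ± 380 in young runners and 1589 ± 428 in young controls. Its difference was 0.89 in old mice (adjusted p = 0.135 by limma) and 0.60 in young mice (adjusted p = 0.199), with no overlap between runners and controls at either age. In the averaged effect it rose by 0.74 (adjusted p = 0.0129), while Gadd45b and Gadd45g fell. Map3k4 kept that call under all 20 alternatives, of which the exon length trend was not one. Of the 9 kinases tested there it alone passed, where 9.52% of all genes did.

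The other CDK inhibitors and their targets gave no call. All 4 further inhibitors were tested in both running comparisons, and by adjusted p 0 passed with limma or with voom. Without adjustment 1 of 4 passed at each age with limma, against 17.4% of all genes here and in the lists that follow. The smallest p was that of Cdkn2b (p15) in old mice (68.4 ± 10.5 normalised reads in old runners and 153 ± 13.0 in old controls, -0.38, adjusted p = 0.213 by limma). In young mice it was that of Cdkn2d (p19) (1141 ± 219 in young runners and 1630 ± 330 in young controls, -0.45, adjusted p = 0.259). Of 16 cyclins, kinases and pocket proteins, 8 were tested in old mice and 9 in young mice. By adjusted p 0 passed with limma or with voom, and without adjustment 1 and 0 passed with limma. Ccnd3 (cyclin D3, 0.61, adjusted p = 0.213) came first in old mice and Rb1 (the retinoblastoma gene, 0.34, adjusted p = 0.478) in young mice. Of 10 proliferation genes, 3 were tested in old mice and 4 in young mice, and those not tested were too low. By adjusted p 0 passed with limma or with voom, and without adjustment 1 passed at each age with limma. Pcna (-0.31, adjusted p = 0.287) came first in old mice and Mcm2 (0.41, adjusted p = 0.287) in young mice.

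Denervation and senescence genes were listed because Gadd45a and Cdkn1a are known from both settings. Of 12 denervation and atrophy genes 11 were tested at each age, and by adjusted p 0 passed with limma or with voom. Without adjustment 2 of 11 in old mice and 4 of 11 in young mice passed with limma, against 17.4% of all genes at each age. The smallest p was that of the stress transcription factor gene Atf4 in old mice (-0.75, adjusted p = 0.152 by limma) and of the deacetylase gene Hdac4 in young mice (-0.57, adjusted p = 0.130). Both are known in mice to act upstream of Gadd45a. In the averaged effect Atf4 fell by 0.59 (adjusted p = 0.0381, lost under 12 of 20 alternatives). Chrna1, a subunit of the acetylcholine receptor, rose there by 0.52 (adjusted p = 0.0253, lost under 2 of 20). Of the 11 genes tested in it, 1 passed higher and 1 lower, where 9.52% of all genes passed. Of 10 senescence-associated genes 7 were tested at each age, and by adjusted p 0 passed with limma or with voom. Without adjustment 1 of 7 in old mice and 2 of 7 in young mice passed with limma. The chemokine gene Ccl2 came first (0.82 in old mice, adjusted p = 0.172, and 1.86 in young mice, adjusted p = 0.0561). Ccl2 rose in the averaged effect (1.34, adjusted p = 0.00743 by limma and 0.0503 with voom), the only one of 6 tested there to pass with limma.

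Immediate early genes, which like Gadd45b are switched on rapidly by stress, included genes that fell in runners. Their list, like the others, was drawn up with earlier results of these data known. Of 22 listed genes 20 were tested, and in old runners 3 fell and 0 rose, namely Zfp36, which encodes an RNA-destabilising protein (-1.45, adjusted p = 0.00539 by limma), Ier2 (-1.17, adjusted p = 0.0198) and Fos, a subunit of AP-1 (-1.34, adjusted p = 0.0458), with a median difference of -0.60 against 0.03 over all genes. In young runners 1 fell, Socs3, an inhibitor of cytokine signalling (-1.59, adjusted p = 0.0412), with a median of -0.23 against 0.01. Over all genes tested, 0.0533% passed and were lower in old runners, and 0.480% in young runners. Without adjustment 12 of the 20 passed in old mice and 7 of 20 in young mice by limma, against 17.4% of all genes at each age. Zfp36 kept its call under all 17 alternatives, while Ier2 lost it under 5, Fos under 10 and Socs3 under 9, and voom called 2 genes of the list in old mice and 0 in young mice. In the averaged effect 9.52% of all genes tested passed, and 4.66% passed and were lower. The median of the list there was -0.35, against 0.04 over all genes. Of its 20 tested genes 6 fell and 0 rose (Zfp36, Socs3, Fos, Ier2, Junb and Nr4a1). Of these, Nr4a1 lost the call under 7 of 20 alternatives and the other 5 kept it. Summed normalised reads of the list were 468776 to 641834 in old runners and 799128 to 911296 in old controls, and 632913 to 768790 in young runners and 678369 to 849875 in young controls. Their part in the differences of Gadd45b and Gadd45g was not tested.

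Between the ages, 0 genes of these lists, cell type markers apart, passed with limma or with voom in either comparison. In old controls over young controls the first genes by p were the p38 kinase kinase gene Map2k6 (1248 ± 203 normalised reads in old controls and 2108 ± 245 in young controls, -0.62, adjusted p = 0.208 by limma), Ccnd3 (-1.14, adjusted p = 0.208), Cdkn2b (0.35, adjusted p = 0.584), the replication gene Mcm3 (0.87, adjusted p = 0.314), the atrophy ligase gene Fbxo32 (0.64, adjusted p = 0.332), the AP-1 gene Fosb (0.84, adjusted p = 0.0644) and Igfbp7 (1.04, adjusted p = 0.332). In old runners over young runners they were Ccnd3 (-0.44, adjusted p = 0.878), Ier5 (-0.61, adjusted p = 0.618), Map2k4, Runx1, Cdkn2c, Mcm2 and Hmgb1, with adjusted p of 0.982 or more by limma for the last 5. Without adjustment the immediate early list had 2 of 20 genes in controls, against 11.2% of all genes, and 7 of 20 in runners, against 4.91%. The p53 target list had 5 of 23 in controls and 2 of 22 in runners, and the other lists at most 3 in either.

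**Figure D5:**
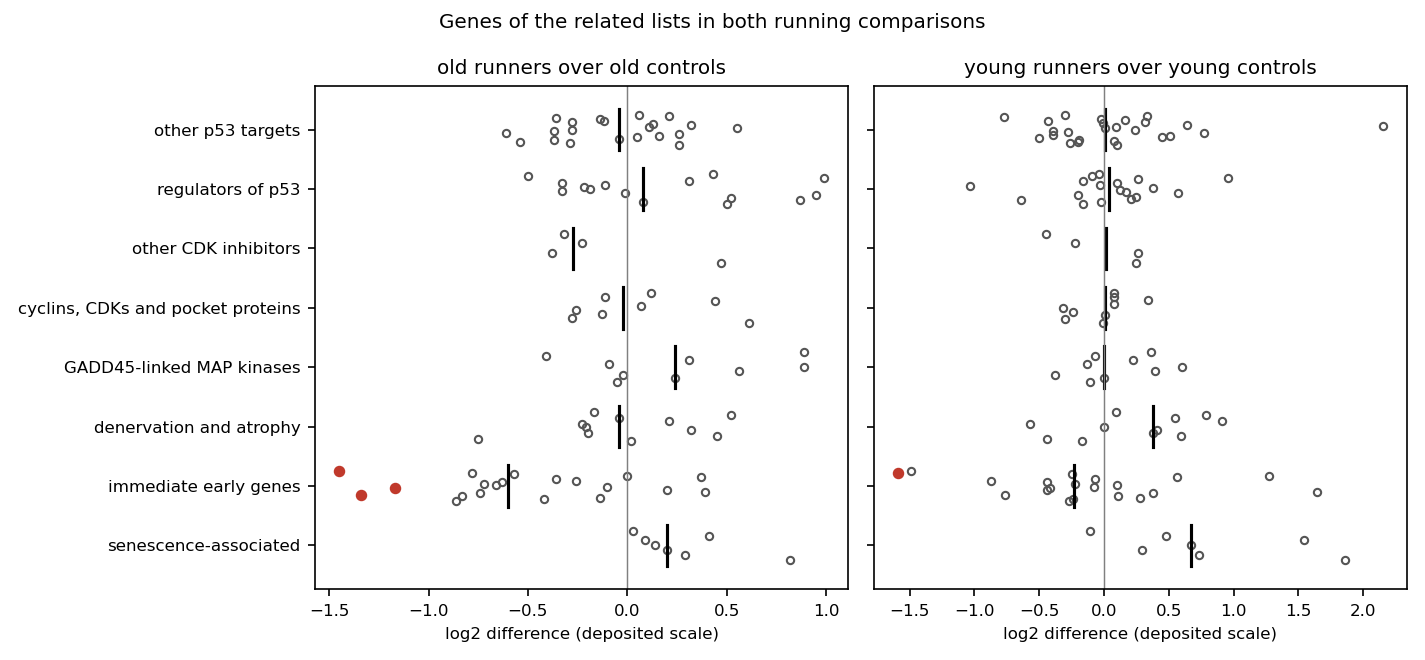
Log2 differences with running (x axis) of each tested gene of 8 related lists (y axis) in old mice (left) and young mice (right), with the list median as a black bar and called genes in red. The called genes all belong to the immediate early list, and genes of the p53 lists lie on both sides of 0.

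Genes whose levels followed a member most closely were looked up over all 16 libraries among 9070 genes, as a description, since all share the libraries, their size factors and the 4 groups. For Gadd45b these were Ddit3, which encodes the stress factor CHOP (Pearson r 0.954 over 16 libraries, and 0.884 after group means were subtracted), Eif4a2 (0.948, and 0.805 within groups) and Fos (0.936, and 0.707 within groups). For Gadd45a they were Map3k8 (0.882), Chuk (0.878) and Eif5 (0.874), with 0.862 to 0.889 within groups. For Cdkn1a they were Ampd3, which encodes an AMP deaminase (0.931), Pi4k2a (0.921) and Ehd4 (0.914), with 0.881 to 0.952 within groups. For Hipk2 they were Ltbp3, a binder of latent TGF-beta (0.938), Iqsec1 (0.928) and Dvl3 (0.926), and the within-group r of these 3 lay between 0.918 and 0.959.

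All 8 fibre markers had values and summed to between 4726806 and 9158501 normalised reads per library. Markers of fibro-adipogenic progenitors, a cell type of the muscle's connective tissue, had values for 7 of 7 and summed to 1900 to 3923 reads in old runners and 236.7 to 1940 in old controls, and to 3740 to 11569 in young runners and 14.37 to 590.0 in young controls, and 2 of them rose in young runners, Dcn (3.25, adjusted p = 0.0190 by limma) and Gsn (3.39, adjusted p = 0.0190). Of the 7 progenitor markers 4 were tested in young mice, where 0.282% of all genes passed and were higher. Of 17 alternatives 4 lost the call of Dcn and 5 that of Gsn, and voom called neither. Endothelial markers (7 of 7 with values) summed to 1054 to 3705 in old runners and 412.2 to 3653 in old controls, and to 1090 to 4538 in young runners and 280.4 to 950.1 in young controls. Among macrophage markers Adgre1, among lymphocyte markers Cd3g, among neutrophil markers Ly6g and Cxcr2, and among fat cell markers Adipoq, Plin1, Lep and Retn had no value. The sums of progenitor, endothelial, pericyte and satellite cell markers overlapped between runners and controls in old mice and did not overlap in young mice. Pericyte and smooth muscle markers summed to 697.0 to 2956 in young runners and 65.68 to 525.0 in young controls. Markers of satellite cells, the stem cells of muscle, summed to 6104 to 7351 in young runners and 4066 to 5904 in young controls. In the averaged effect, which called Gadd45b and Gadd45g, 3 of 3 tested progenitor markers rose (Dcn by 2.27, Gsn by 2.41 and Col3a1 by 1.46, adjusted p = 0.00184, 0.00196 and 0.0125 by limma). The rest of the 7 listed were not tested there, and 4.86% of all genes passed and were higher. There 2 of 8 fibre markers also rose, the myosin heavy chain genes Myh1 (1.43, adjusted p = 0.00514) and Myh4 (0.80, adjusted p = 0.0377), as did the pericyte marker Rgs5 (adjusted p = 0.0284) and the macrophage marker Lyz2 (0.80, adjusted p = 0.0475). Alternatives that lost these calls were 11 of 20 for Myh4, 13 of 16 for Lyz2, 4 of 20 for Rgs5 and 1 of 20 for Col3a1. Of 2 macrophage markers tested in the averaged effect, the other, Cd68, did not pass (0.26, adjusted p = 0.615 by limma). In young mice 2 of 3 tested macrophage markers were higher in runners and 1, Mrc1, was lower (-1.22, adjusted p = 0.0962 by limma). Mrc1 was not tested in the averaged effect. It was lower in old controls than in young controls (-1.56, adjusted p = 0.0448 by limma) and lost that call under 6 of 12 alternatives. The part of these markers in the differences of Gadd45b, Gadd45g and Hipk2 was not tested.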

How the data were processed

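RNA of 16 libraries was amplified from 10 ng each and made into libraries without strand information, per the labels' protocols. Trim Galore, STAR, Subread's featureCounts and DESeq2 are the tools and mm10 the build named, per the submitters' processing notes. The sources used here give no tool version and no annotation. The authors deposited log2 values after variance stabilisation, in 4 tables of 8 libraries, each with 1 pair of groups. Low values are compressed there, so log2 differences of low genes understate the change. The transformation was inverted, which returned whole reads (tolerance 0.02) for 100% of values and thereby depth and the normalised reads (divided by median-of-ratios size factors over all 16 libraries). Reads carry no molecular identifiers.

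Groups were compared within their table with limma 3.58.1 in R 4.3.3 (variance trend, 2-sided, Benjamini-Hochberg over all genes tested, threshold 0.05) on genes at least 1 above the table's floor in at least 4 libraries. The interaction and the averaged effect used both running tables with a term for the table. Control columns are numbered otherwise than the control titles and were matched to their group only, and the same holds for O4ex and Y4ex. Exon lengths and positions are from GENCODE M21, which matched 22205 of 23221 symbols (95.6%). Members and gene lists were chosen with earlier results of these data known. All members are named. Of each further list other than the cell type markers, every gene past the threshold or else the 1 with the smallest p is named in each comparison of 2 groups. Every cell type marker past the threshold is named. The fits were tested on simulated data. Tables were read and plots drawn with Python 3.11.15.

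Alternatives were other filters, scalings, weights, variance moderation, voom, leaving out each library in turn and, in runners, a replicate block. The averaged effect and the removal of an exon length trend (lowess span 0.3) were added after the data were seen. The trend was not removed in the averaged effect or the interaction.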

Additional observations from a re-analysis of the deposited data

Results flagged for a closer look

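In 36 groups of 4 libraries (9 members, 4 groups) 3 had a library far from the other 3, by the gap to its neighbour over the whole range of the group on the deposited scale, set against Dixon's limit. Chance gives such a gap in about 1 of 20 groups. Gadd45a in the old control Oc2 had a ratio of 0.899 (13.19, against 13.84 to 13.92 in the others). Trp53 in the old runner O2ex had 0.835 (9.24, against 9.63 to 9.71). Cdkn1b in the young control Yc7 had 0.960 (8.59, against 8.08 to 8.11). The interaction of running and age called 0 of 8 members by limma (0 unadjusted, 0 with voom).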

How the results depend on the processing

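The count of genes called in old runners (12) depended on the setting: 7 with no filter, 27 with a filter of 2, 23 after median centring (11 higher, 12 lower), 24 after quantile normalisation (9 higher, 15 lower), 688 with library weights, 4 without a variance trend, 3 with voom, 1 with the exon length trend removed, and 1 to 295 when 1 library was left out. Of its 2 called members, 0 remained with no filter, without a variance trend, with voom and with the length trend removed, and 0 to 3 were called with 1 library left out. In young runners (81) it was 24 with no filter, 143 after median centring, 228 after quantile normalisation, 1394 with library weights, 47 without a variance trend, 13 with voom, and 0 to 181 with 1 library left out. Members called there were 2 after median centring, 2 after quantile normalisation (Gadd45b and Gadd45g) and 3 with library weights (with Cdkn1a), and 0 with any 1 library left out. Old against young controls (11) gave 3 with no filter, 28 after quantile normalisation, 461 with library weights, 3 with voom, and 3 to 52 with 1 library left out. Old against young runners (2) gave 7 with library weights, 0 with the replicate block, and 0 to 3 with 1 library left out. The interaction gave 0 to 5 genes and the averaged effect 384 to 1175 with 1 library left out, with 2 members called throughout in the averaged effect.

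A change of sign occurred only in differences that had not passed: Mdm2 in old mice with voom (0.007), Ccng1 in young mice after quantile normalisation (-0.043), Trp53 in controls after quantile normalisation (0.010), and with library weights Gadd45a (0.077), Gadd45b (-0.012) and Trp53 (0.069) in controls and Trp53 (0.009) in runners. With 1 library left out, ranges that crossed 0 were -0.136 to 0.143 for Mdm2 in old running and -0.196 to 0.540 for Hipk2 in young running. In controls they were -0.137 to 0.157 for Gadd45a, -0.111 to 0.118 for Gadd45b, -0.020 to 0.202 for Gadd45g, -0.036 to 0.366 for Cdkn1a, -0.138 to 0.031 for Trp53 and -0.657 to 0.024 for Hipk2. In runners they were -0.334 to 0.061 for Gadd45a, -0.517 to 0.230 for Gadd45g, -0.044 to 0.138 for Mdm2 and -0.168 to 0.008 for Trp53. In the interaction they were -0.285 to 0.109 for Gadd45a, -0.592 to 0.160 for Gadd45g and -0.168 to 0.030 for Trp53. The cause of these changes was not tested. Gadd45b and Gadd45g were lower in runners under every alternative run at either age.

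Same-numbered old and young runners had correlations of -0.240, 0.092, -0.398 and -0.044. Runners with different numbers had correlations from -0.404 to 0.414, so these values cannot show whether the numbers pair them. The replicate block left 0 genes called, against 2 without it. No block could be fitted in controls, whose columns share 1 number.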
